A study of Mus musculus with 20 samples.

Results

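The genes described here carry fatty acids through the heart cell, from uptake and activation, through the carnitine shuttle and mitochondrial beta-oxidation, to storage as triglyceride and release from it. The members were 35 genes, chosen by name for their step in this route, of 23420 genes in the count table. All 35 passed the filter on low counts (a scaled count, CPM, of 1 or more in 10 mice or more), as did 13590 genes in all. Messenger RNA of whole hearts from male wild-type C57BL/6 mice (C57BL/6J in the study's methods) was measured by sequencing. The control group held 10 mice on a control diet, and the iron-deficiency anemia (IDA) group held 10 mice on an iron-deficient diet for 6 weeks from the age of 3 weeks. Both groups were 9 weeks old when the hearts were taken, and no group carried a genetic change. The question was whether transcripts of fatty acid handling differ between the diets, in a model in which the diet produces severe anemia.

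The adult heart draws most of its energy from long-chain fatty acids. These enter the cell through a membrane transporter, are joined to coenzyme A, cross the mitochondrial membranes as carnitine esters and are shortened by a repeated cycle of reactions, whose electrons pass to the respiratory chain through the electron transfer flavoprotein. The supply is gated by malonyl-CoA, which blocks the first carnitine palmitoyltransferase, and many genes of the route are known targets of the fatty acid receptor PPAR alpha. Surplus fatty acid is stored as triglyceride in lipid droplets and released by lipases.

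The log2 fold changes of the 35 members lay between -0.59 and 0.38 in the main fit, and for 17 of them the direction changed with a correction for gene length. The counts of 18 members reached 1 or more read pairs per exonic base, where removal of duplicate reads can hold a count down, so a small difference in these does not show that transcript levels were alike. Lipe, the hormone-sensitive lipase, was higher in IDA hearts in each of the 13 settings tried, with a fold of 1.30 in the main fit. Ppara, the gene of PPAR alpha, and Cpt1a, the liver form of carnitine palmitoyltransferase 1, were lower in the main fit, with folds of 0.664 and 0.773, and neither was called with a correction for gene length alone. When GC content was corrected as well, Cpt1a was called lower again (-0.20 on the log2 scale, adjusted p = 0.0275) and Ppara was not called (-0.16, adjusted p = 0.0560). In the main fit, 18 of 35 members were higher and 3 were lower in IDA hearts, beside 35% and 32.5% of all genes tested, and with the length correction 10 were higher and 3 lower, beside 31.5% and 23.5%. Leaving out 1 mouse of each diet moved the 18 to between 10 (without control replicate 8 and IDA replicate 6 or 8) and 24 (without control replicate 1 and IDA replicate 4). No member separated the groups completely, and for each of them the ranges of the diets overlapped.

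Promoter sequences are shown for Lipe, Cpt1a and Ppara, the genes named first above, and for Hadha, whose window overlaps that of its neighbour Hadhb. They are RefSeq sequences of the mouse build GRCm38.p6, from 250 bases before to 50 bases after each annotated start, 5′ to 3′ on the strand of the gene. Of the 35 members, 28 had such a sequence, with 33 windows in all. Lipe lies on chromosome 7 (chr7:25379527-25395987 in mm10, minus strand), and 2 start sites are annotated for it. The capitals in the window of its upstream start (chr7:25395938-25396237) mark the hypoxia response core ACGTG, which reads on both strands at this position. The window of its downstream start (chr7:25390063-25390362) holds none of the motifs searched. The capitals in the window of Cpt1a (chr19:3323051-3323350, plus strand) mark the nuclear receptor half-site AGGTCA, read on the opposite strand. The window of Ppara (chr15:85735526-85735825, plus strand) holds none of the motifs searched.
Lipe, upstream start: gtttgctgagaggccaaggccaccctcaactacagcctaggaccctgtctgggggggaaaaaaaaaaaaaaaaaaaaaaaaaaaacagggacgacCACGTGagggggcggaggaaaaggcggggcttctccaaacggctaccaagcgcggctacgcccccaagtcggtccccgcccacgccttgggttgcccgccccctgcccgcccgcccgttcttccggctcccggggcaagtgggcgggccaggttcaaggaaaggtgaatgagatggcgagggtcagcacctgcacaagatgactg
Lipe, downstream start: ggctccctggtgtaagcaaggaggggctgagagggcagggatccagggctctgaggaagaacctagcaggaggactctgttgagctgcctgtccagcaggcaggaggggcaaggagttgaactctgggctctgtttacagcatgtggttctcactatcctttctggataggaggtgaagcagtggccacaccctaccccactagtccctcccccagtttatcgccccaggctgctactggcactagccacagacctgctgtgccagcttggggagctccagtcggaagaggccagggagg
Cpt1a: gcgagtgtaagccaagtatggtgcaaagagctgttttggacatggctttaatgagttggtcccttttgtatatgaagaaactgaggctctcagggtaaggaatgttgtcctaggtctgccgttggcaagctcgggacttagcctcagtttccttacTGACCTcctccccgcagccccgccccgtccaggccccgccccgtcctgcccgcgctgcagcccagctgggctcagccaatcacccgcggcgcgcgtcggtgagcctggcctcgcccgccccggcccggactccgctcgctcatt
Ppara: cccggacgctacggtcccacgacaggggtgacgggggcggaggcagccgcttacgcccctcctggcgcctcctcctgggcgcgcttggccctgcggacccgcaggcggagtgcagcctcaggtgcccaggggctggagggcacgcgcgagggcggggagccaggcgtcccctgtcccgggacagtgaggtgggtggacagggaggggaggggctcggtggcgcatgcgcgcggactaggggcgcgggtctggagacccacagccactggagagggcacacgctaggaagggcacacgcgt

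Hadha and Hadhb, which encode the 2 subunits of the mitochondrial trifunctional protein, lie head to head on chromosome 5. Their promoter windows (chr5:30154931-30155230 on the minus strand and chr5:30155003-30155302 on the plus strand) share 228 bases. The window of Hadha is printed with the shared bases (chr5:30155003-30155230) in capitals.
Hadha: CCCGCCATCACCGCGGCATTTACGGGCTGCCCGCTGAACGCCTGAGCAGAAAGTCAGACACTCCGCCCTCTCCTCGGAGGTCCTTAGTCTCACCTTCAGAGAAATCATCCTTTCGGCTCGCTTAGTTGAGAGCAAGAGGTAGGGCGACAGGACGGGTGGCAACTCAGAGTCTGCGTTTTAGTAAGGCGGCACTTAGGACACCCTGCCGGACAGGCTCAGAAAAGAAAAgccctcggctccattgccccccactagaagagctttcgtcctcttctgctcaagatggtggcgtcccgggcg
The motifs were searched on both strands of all windows. AGGTCA was present in 16.3% of all 32851 windows and in 7 of the 33 member windows, those of Acacb, Acadm, Acadvl, Cd36, Cpt1a and Plin5. ACGTG was present in 19.6% of all windows and in 4 of 33, those of Acacb, Acadvl, Lipe and Slc27a1. The ERR element TCAAGGTCA, which contains AGGTCA, was present in 0.423% of all windows, and the direct repeat AGGTCANAGGTCA in 0.0396%. Neither was present in a member window. These are matches of letters in short windows and not measurements of binding.

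Several measures of the libraries moved with diet. The counts were read pairs per gene after removal of duplicate reads, and totals ran from 6682177 to 8960688 pairs per mouse. From here on, fold changes of IDA against control are log2 values from edgeR on counts scaled by TMM, a method that equalises the bulk of genes between libraries, unless a correction or another setting is named. Levels are CPM, the count of a gene as a share of the scaled total of its library. A change was called at an adjusted p below 0.05 over all 13590 genes. In all mice, the deviation of each gene from its mean across mice followed gene length. The slope per doubling of exonic length was 0.0205 to 0.199 in control mice and lay between -0.254 and -0.0252 in IDA mice, with no overlap. A second fit therefore removed a smooth trend on exonic length from each mouse. The median log2 fold change of all genes tested was 0.02 in the main fit and 0.04 with the length correction. The source of this trend was not tested. Separately, 2 libraries stood apart in liver transcripts. Of 5 hepatocyte genes, the summed level was highest in control replicate 4, at 66.2 CPM, and in IDA replicate 7, at 134 CPM, against medians of 3.98 and 9.39 CPM. Without these 2 mice, 14 members were higher and 3 lower in the main fit, beside 33.9% and 32.3% of all genes, and 8 were higher and 5 lower with the length correction, beside 30.2% and 23.2%.

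**Figure D1:**
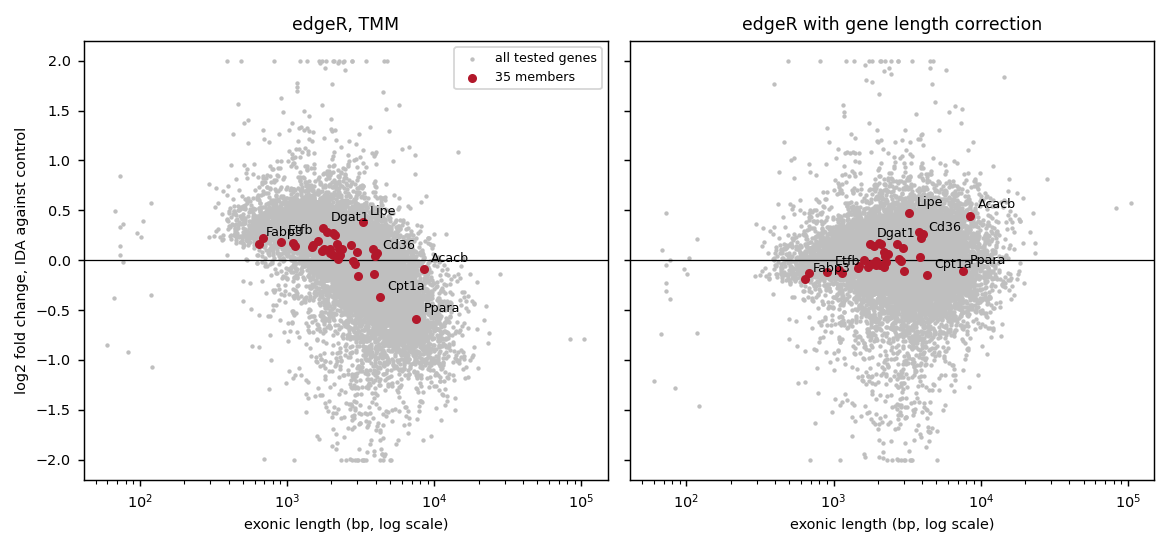
Log2 fold change of IDA against control hearts (vertical) against exonic length in bp on a log scale (horizontal), in the main fit (left) and with the gene length correction (right). Grey points are the 13590 genes tested, with values beyond 2 drawn at 2, and red points are the 35 members. On the left, long genes such as Ppara lie low and short genes such as Fabp3 lie high.

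The background of calls was wide. Of all genes tested, 35% were higher and 32.5% were lower in the main fit, against 51.4% (18 of 35) and 8.57% (3 of 35) of the members. With the length correction, 31.5% of all genes were higher and 23.5% were lower, against 28.6% (10 of 35) and 8.57% (3 of 35) of the members. When GC content was corrected along with length, 26.8% of all genes were higher and 20% were lower, against 9 of 35 members in each direction. The members higher there were Cd36, Lpl, Acsl1, Acacb, Hadha, Hadhb, Decr1, Etfdh and Lipe, and those lower were Fabp3, Slc27a1, Cpt1a, Acaa2, Ech1, Eci1, Etfb, Acot13 and Dgat2. Every IDA mouse lay above every control mouse for 4.97% of all genes and below for 6.28%, and this held for 0 of 35 members in either direction. The median log2 fold change of the members was 0.11 in the main fit and -0.01 with the length correction. The median exonic length was 2188 bp for the members and 2900 bp over all genes tested. Of the members, 6 (17.1%) were higher in both the main and the length-corrected fit (Mlycd, Acads, Plin5, Dgat1, Pnpla2 and Lipe), against 21.5% of all genes. None of the 35 was lower in both, against 19.1% of all genes. A further 3 (8.57%) were higher in the main fit and lower with the correction (Fabp3, Etfb and Acot13), against 1.12% of all genes, and 10 (28.6%) were called in neither, against 21.9%. With log2 library size as a covariate in place of the length correction, 5 members were higher (Acads, Acot13, Plin5, Dgat1 and Lipe) and 9 lower (Cd36, Slc27a1, Lpl, Acsl1, Cpt1a, Acacb, Acadm, Etfdh and Ppara), beside 29.1% of all genes in each direction.

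**Figure D2:**
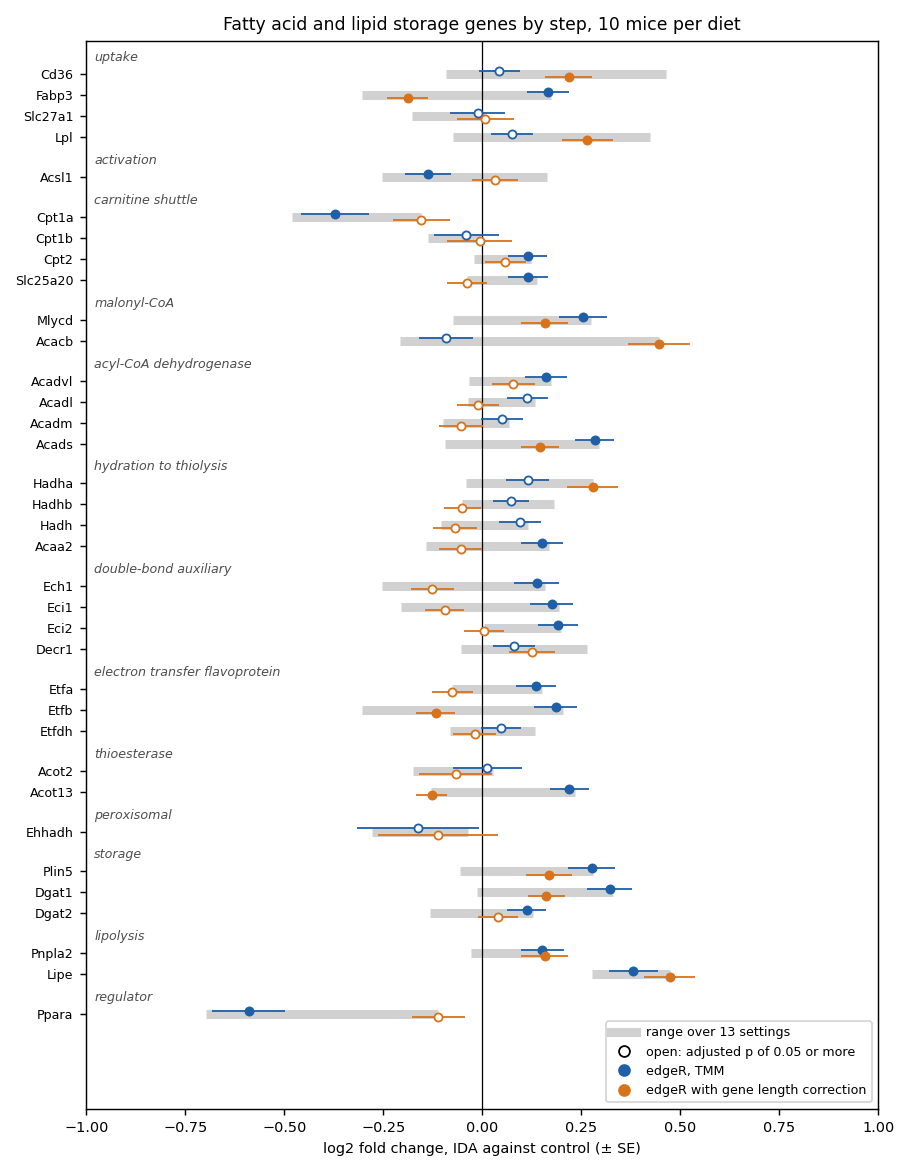
Log2 fold change of IDA against control hearts for the 35 members, grouped by step, with 10 mice per diet. Blue points are the main fit and orange points the fit with gene length correction, with bars of 1 SE and open points where the adjusted p is 0.05 or more. Grey bars give the range over 13 settings, which lies wholly above zero for Lipe and Eci2 and wholly below zero for Cpt1a, Cpt1b, Ehhadh and Ppara.

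Raw counts of some members differed little between mice, as for Fabp3, with 520 to 597 pairs per mouse. Of the 35 members, 18 had a mean of 1 or more read pairs per exonic base, up to 1.64 for Ech1, against 270 of all 13590 genes tested. Duplicate removal keeps only 1 pair per pair of end positions, so the count of such a gene can approach a ceiling. For 6 of 35 members the variance of the raw counts was below their mean in both groups, against 191 of 13590 genes. These were Acadl, Ech1, Etfa and Etfb, which are among the 18, and Fabp3 and Cpt1b, which are not. The other 14 of the 18 were above that line in at least 1 group, up to 8.14 in control and 19.4 in IDA mice for Acsl1. These raw counts were not scaled, and differing totals alone widen the spread of a count that follows its total. A variance above the mean therefore does not show that a count was free of the ceiling. Among all genes at 1 or more pairs per base, 71.1% were called higher and 0.741% lower in the main fit, against 55.6% (10 of 18) and 5.56% (1 of 18) of the members of that kind. Totals were smaller in IDA hearts, by a log2 ratio of -0.15, and scaling raises a count that does not follow the total. The part of this in the values of the abundant members was not tested separately. Without any scaling to the totals, 11 members (beside 21.1% of all genes) were called higher in place of 18, and 4 (beside 36.1%) lower in place of 3. Of the 8 members below 0.5 pairs per base, 2 (25.0%) were higher (Dgat1 and Lipe) and 2 (25.0%) lower (Cpt1a and Ppara) in the main fit, against 30.8% and 35.3% of all genes of that kind.

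**Figure D3:**
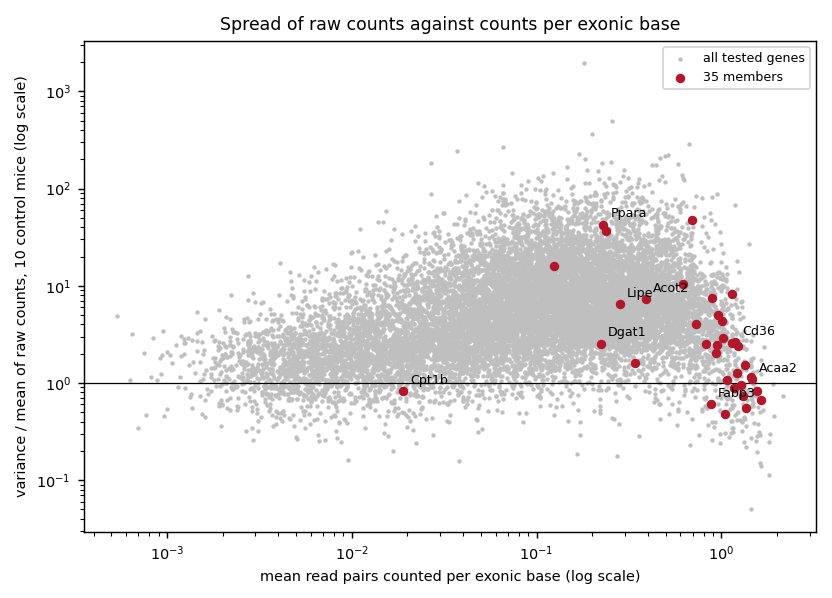
Variance divided by mean of the raw counts over the 10 control mice (vertical, log scale) against the mean number of read pairs counted per exonic base (horizontal, log scale). Grey points are the 13590 genes tested and red points the 35 members. The line at 1 is the spread that random counting alone gives at equal totals. Totals differed between mice, so a count that follows its total would lie higher. Of the 18 members at 1 or more pairs per base, 11 lie above the line. Fabp3 and Ech1 lie below it, and Ppara and Lipe above it.

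Uptake was described by 4 genes. Cd36 encodes the main fatty acid transporter of the heart cell membrane, and its level lay between 557 and 711 CPM among control mice (median 604) and between 570.1 and 707 CPM among IDA mice (median 647). The means were 616 ± 52.0 (SD) and 635 ± 49.0 CPM. The groups overlapped throughout, and the log2 fold change of 0.04 was not called (adjusted p = 0.461). Lpl encodes the lipoprotein lipase that frees fatty acids from circulating triglyceride. It lay between 724 and 953 CPM (median 805) among control mice and between 779 and 972 CPM (median 901) among IDA mice, with means of 829 ± 74.97 (SD) and 874 ± 68.5 CPM and a fold change of 0.08 that was not called (adjusted p = 0.211). Both genes are long (3927 and 4049 bp), and with the length correction both were higher, Cd36 by 0.22 ± 0.06 (SE) with an adjusted p of 0.00308 and Lpl by 0.27 ± 0.06 with an adjusted p of 0.00125. With GC content corrected as well, Cd36 stood at 0.46 (adjusted p = 7.1e-06) and Lpl at 0.42 (adjusted p = 3.43e-05). With library size as a covariate both were called lower, Cd36 at -0.09 (adjusted p = 0.0144) and Lpl at -0.07 (adjusted p = 0.0137). Both had more than 1 pair per exonic base. Mean raw counts in control and IDA mice were 4712 and 4558 pairs for Cd36 and 6331 and 6266 pairs for Lpl.

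Fabp3 encodes the fatty acid binding protein of the heart cytosol and is short (640 bp). It lay between 62.4 and 80.6 CPM (median 70.0) among control mice and between 71.0 and 88.6 CPM (median 82.2) among IDA mice, with means of 71.6 ± 5.43 (SD) and 80.3 ± 6.94 CPM. The main fit called it higher by 0.17 ± 0.05 (adjusted p = 0.00817) and the length-corrected fit called it lower at -0.19 ± 0.05 (adjusted p = 0.00376). Its mean raw count was 547 pairs in control and 576 pairs in IDA mice, a log2 ratio of 0.07. A stretch of 402 bp of its transcript is 99.3% identical to the pseudogene Fabp3-ps1, so reads there may map to both and then were not counted. Slc27a1, a fatty acid transport protein with acyl-CoA synthetase activity, had medians of 232 and 236.4 CPM and a fold change of -0.01 (0.01 with the correction), called in neither fit. It was called lower with length and GC content corrected (-0.18, adjusted p = 0.0425) and with library size as a covariate (-0.17, adjusted p = 0.0364). Per kilobase of exon, Lpl was the highest of these genes, at 205 CPM in control and 216 CPM in IDA hearts.

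Activation was represented by Acsl1, the main long-chain acyl-CoA synthetase of the heart. It lay between 577 and 702 CPM (median 619) among control mice and between 465 and 674 CPM (median 575) among IDA mice, with means of 629 ± 40.7 (SD) and 572 ± 64.6 CPM. Only 2 of 10 IDA mice lay above the control mean. The main fit called it lower, at -0.14 ± 0.06 (adjusted p = 0.0385), and the length-corrected fit did not call it (0.03, adjusted p = 0.656). With GC content corrected as well it was called higher (0.16, adjusted p = 0.0228). Leaving out 1 mouse of each diet kept the call in 49 of 100 fits.

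In the carnitine shuttle, Cpt1a was lower and Cpt2 and Slc25a20 were higher in the main fit, and no gene was called in the corrected one. Cpt1a encodes the form of carnitine palmitoyltransferase 1 that predominates in liver and in the immature heart. Its level lay between 135 and 179 CPM (median 148) among control mice and between 85.1 and 147 CPM (median 119) among IDA mice, with means of 154 ± 14.7 (SD) and 119 ± 21.0 CPM. Each of the 10 IDA mice lay below the control mean, although the 2 groups overlapped at their edges. The main fit gave -0.37 ± 0.09 (adjusted p = 0.000582) and the length-corrected fit -0.15 ± 0.07 (adjusted p = 0.0707). With GC content corrected as well it was called lower, at -0.20 (adjusted p = 0.0275). Its sign was negative in 13 of 13 settings, and it was called in 12 of them, with values between -0.48 and -0.15.

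Cpt1b encodes the muscle form, which is the main one in the adult heart, yet only 57.1 pairs per control mouse and 51.9 pairs per IDA mouse were counted for it. Of its 2894 exonic bases, 2744 (94.8%) are shared with the annotated gene BC090627 on the same strand, and pairs that overlap 2 genes were not counted. Its level of 6.41 to 8.57 CPM in control (median 7.42) and 6.12 to 8.22 CPM in IDA hearts (median 7.15), with means of 7.43 ± 0.692 (SD) and 7.24 ± 0.719 CPM, is therefore that of a small part of the transcript. The fold change was -0.04 (adjusted p = 0.676), and -0.01 with the correction. The log2 ratio of Cpt1a to Cpt1b counts ran from 4.11 to 4.65 in control and from 3.67 to 4.36 in IDA mice. It was lower in IDA, at -0.35 on the log2 scale (adjusted p = 0.00171 over 4 ratios, 2-sided permutation test), and at -0.16 with the length correction (adjusted p = 0.0569). The absolute size of this ratio has no meaning for the 2 enzymes, since most Cpt1b reads were left uncounted.

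Cpt2, the inner-membrane carnitine palmitoyltransferase, had medians of 308 and 349 CPM and ranges of 282 to 347 and 296 to 369 CPM, with means of 311 ± 22.0 (SD) and 337 ± 27.0 CPM. Slc25a20, the carnitine-acylcarnitine exchanger, had medians of 215 and 241.8 CPM and ranges of 196 to 253.5 and 209 to 261 CPM, with means of 219 ± 18.8 (SD) and 237.2 ± 17.3 CPM. Both overlapped widely, and both passed the threshold narrowly in the main fit, Cpt2 at 0.11 (adjusted p = 0.0405) and Slc25a20 at 0.12 (adjusted p = 0.0445). With the correction they stood at 0.06 and -0.04, and without the 2 mice of highest liver transcripts their adjusted p values were 0.0750 and 0.0820. Cpt2 was the highest of this step per kilobase in both diets, at 132 and 143 CPM.

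**Figure D4:**
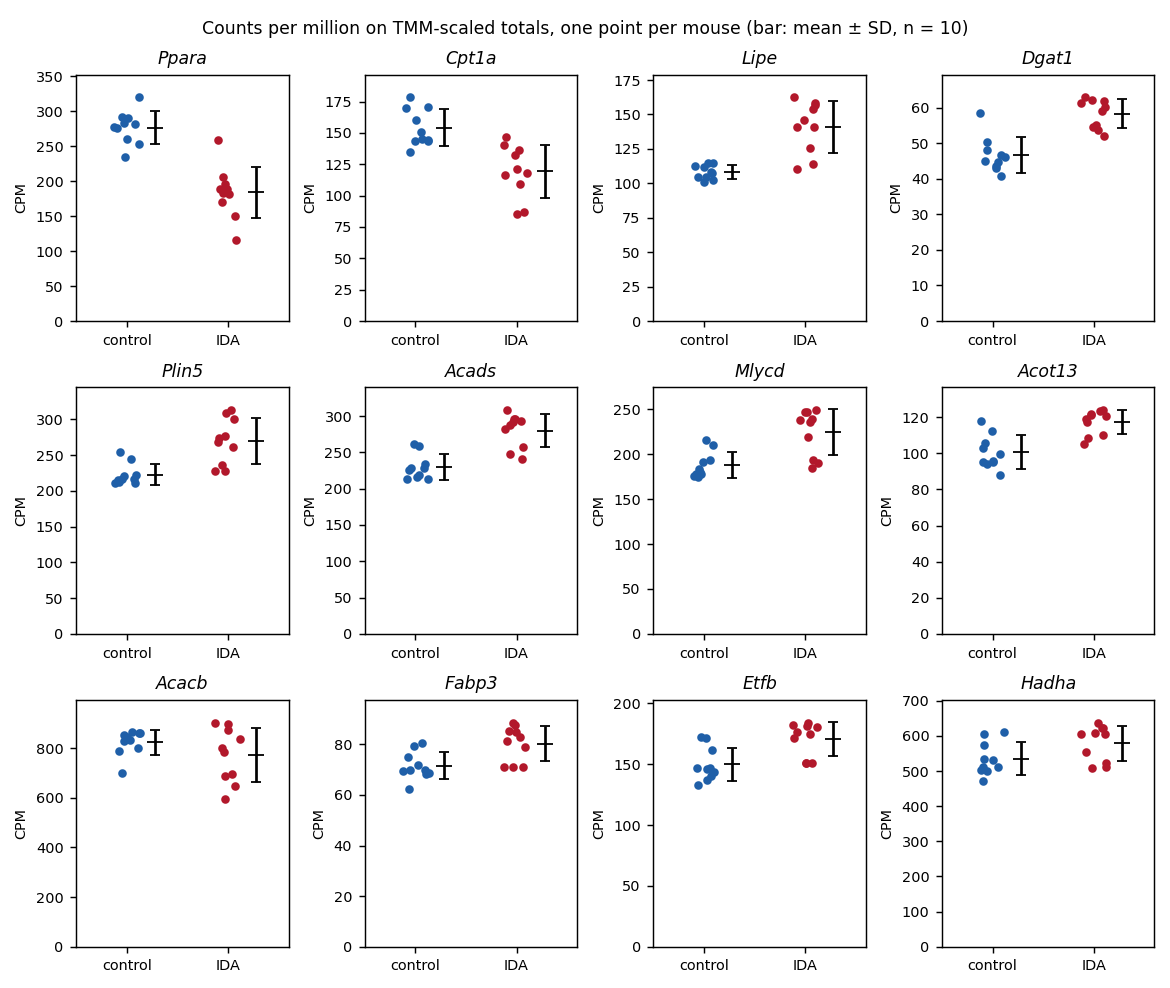
Level in CPM on TMM-scaled totals (vertical) for 12 members, with 1 point per mouse, control mice in blue and IDA mice in red, and bars of the mean ± SD (10 mice per diet). Ppara and Cpt1a sit lower and Lipe, Dgat1, Plin5, Acads, Mlycd and Acot13 higher in IDA hearts, with overlap in each panel. The vertical axes start at zero.

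The 2 genes that set malonyl-CoA differed in length and in their response to the correction. Mlycd encodes malonyl-CoA decarboxylase, which removes malonyl-CoA. It lay between 174 and 216 CPM (median 182) among control mice and between 185 and 249.3 CPM (median 236.6) among IDA mice, with means of 188 ± 14.7 (SD) and 224 ± 25.6 CPM, and 9 of 10 IDA mice lay above the control mean. It was higher by 0.26 ± 0.06 (adjusted p = 0.000744) in the main fit and by 0.16 ± 0.06 (adjusted p = 0.0296) with the length correction. When GC content was corrected as well, it stood at -0.07 and was not called (adjusted p = 0.343).

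Acacb encodes acetyl-CoA carboxylase 2, which makes malonyl-CoA at the mitochondrion, and is the longest member (8485 bp). It lay between 699.7 and 865 CPM (median 838) among control mice and between 595 and 902 CPM (median 793) among IDA mice, with means of 822 ± 50.4 (SD) and 772 ± 109 CPM. The IDA mice spread on both sides of the control range. The main fit did not call it (-0.09, adjusted p = 0.234), and the corrected fit called it higher by 0.45 ± 0.08 (adjusted p = 5.42e-05). It was called lower with library size as a covariate (-0.21, adjusted p = 0.0203) and without scaling to the totals (-0.20, adjusted p = 0.00207). Per kilobase, Acacb and Mlycd were at 96.9 and 89.5 CPM in control and at 91.0 and 107 CPM in IDA hearts.

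The acyl-CoA dehydrogenases carry out the first step of each beta-oxidation turn and differ in the chain length they accept. Acads, the short-chain enzyme, lay between 213 and 262 CPM (median 227) among control mice and between 241.1 and 309 CPM (median 289.5) among IDA mice. Its means were 229.9 ± 17.7 (SD) and 279.9 ± 22.9 CPM, and each of the 10 IDA mice lay above the control mean. It was higher by 0.28 ± 0.05 (adjusted p = 3.36e-05) in the main fit and by 0.15 ± 0.05 (adjusted p = 0.013) with the length correction, and stood at -0.09 (adjusted p = 0.131) when GC content was also corrected.

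Acadvl, the very-long-chain enzyme, had medians of 396 and 473 CPM, ranges of 358 to 463 and 397 to 490.3 CPM and means of 406 ± 35.7 (SD) and 454 ± 37.2 CPM. It was higher by 0.16 ± 0.05 (adjusted p = 0.0105) in the main fit, but not with the correction (0.08). The long-chain gene Acadl had medians of 335 and 384 CPM and a fold change of 0.11 (adjusted p = 0.0553). The medium-chain gene Acadm had medians of 341 and 369.9 CPM and a fold change of 0.05 (adjusted p = 0.414). The last 2 were called in neither fit, and corrected values were -0.01 and -0.05. With library size as a covariate Acadm was called lower (-0.10, adjusted p = 0.00868). All 4 had at least 1 pair per exonic base, and per kilobase Acadvl was the highest, at 186 CPM in control and 207 CPM in IDA hearts.

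The later reactions of each turn, hydration to thiolysis, were covered by Hadha, Hadhb, Hadh and Acaa2. Hadha, the alpha subunit of the trifunctional protein, lay between 472 and 610.3 CPM (median 522) among control mice and between 509.8 and 638 CPM (median 604) among IDA mice, with means of 535 ± 46.6 (SD) and 579.8 ± 49.9 CPM. It was not called in the main fit (0.11 ± 0.05, adjusted p = 0.0644) and was higher with the correction (0.28 ± 0.06, adjusted p = 0.000848) and with GC content corrected as well (0.24, adjusted p = 0.00372). Hadhb, the beta subunit, lay between 81.2 and 98.1 CPM (median 86.2) among control mice and between 82.9 and 102 CPM (median 92.0) among IDA mice (means of 87.2 ± 5.49 and 91.8 ± 6.71 CPM), with values of 0.07 and -0.05 that were not called, and was higher by 0.18 (adjusted p = 0.00251) with length and GC content corrected. The promoter windows of the 2 genes overlap, as printed above, and Hadha is 3835 bp and Hadhb 1949 bp long. Their log2 ratio differed by 0.04 between the diets in the counts (adjusted p = 0.0913, 2-sided permutation test) and by 0.33 after the length correction (adjusted p = 0.00012).

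The level of Hadhb is not comparable with that of Hadha. A stretch of 1428 bp of the Hadhb transcript is 99.8% identical to the annotated copy Gm13910, Gm9108 is a further near copy, and pairs that map to several places were not counted. Hadh, the short-chain hydroxyacyl-CoA dehydrogenase, had medians of 296 and 333 CPM and values of 0.10 (adjusted p = 0.110) and -0.07, called in neither fit. Acaa2, the mitochondrial thiolase, had medians of 274 and 324 CPM, ranges of 252.7 to 320.5 and 269 to 339 CPM and means of 281 ± 23.9 (SD) and 312 ± 26.9 CPM. It was higher in the main fit only (0.15 ± 0.05, adjusted p = 0.0156), with -0.05 after length correction and a call in the lower direction with length and GC content corrected (-0.14, adjusted p = 0.0461). It was the highest of this step per kilobase, at 187 and 208 CPM.

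Unsaturated fatty acids need auxiliary enzymes that move or reduce double bonds. Of these 4 genes, 3 were higher in the main fit, beside 35% of all genes tested. With the length correction 0 were higher, beside 31.5%. Ech1 and Eci1 had 1 or more pairs per exonic base, and among all such genes 71.1% were higher in the main fit and 16.7% with the correction. Eci1 and Eci2 encode enoyl-CoA isomerases. The medians of Eci1 were 165 and 197 CPM, its ranges 150.5 to 194 and 164 to 206 CPM and its means 169 ± 14.9 (SD) and 191 ± 16.4 CPM, and it was higher by 0.18 (adjusted p = 0.00672). The medians of Eci2 were 165 and 199.9 CPM, its ranges 157 to 190.5 and 166 to 208 CPM and its means 169 ± 11.7 (SD) and 192 ± 17.1 CPM, and it was higher by 0.19 (adjusted p = 0.00208). Ech1, a dienoyl-CoA isomerase, had medians of 232 and 276 CPM, ranges of 212 to 279.6 and 231 to 284 CPM and means of 240.2 ± 24.0 (SD) and 264 ± 21.9 CPM, and was higher by 0.14 (adjusted p = 0.0345). In all 3 the groups overlapped. In 100 fits that left out 1 mouse of each diet, the main-fit call was kept in 49 for Ech1 and in 100 for Eci1 and Eci2. With the correction Eci1 stood at -0.10, Eci2 at 0.0048 and Ech1 at -0.13. With GC content corrected as well, Eci1 was lower at -0.21 (adjusted p = 0.00318) and Ech1 at -0.25 (adjusted p = 0.00137). Ech1 had the highest level per kilobase of all 35 members, at 211 and 232 CPM, and the most pairs per base. Decr1, the dienoyl-CoA reductase, had medians of 365 and 400.1 CPM and was called in neither fit (0.08 and 0.13), but was higher by 0.27 (adjusted p = 0.000879) with length and GC content corrected.

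Electrons from the dehydrogenases pass to the electron transfer flavoprotein, whose subunits Etfa and Etfb encode. Etfb lay between 133 and 172 CPM (median 146.5) among control mice and between 151 and 184 CPM (median 176) among IDA mice, with means of 150 ± 13.8 (SD) and 170.5 ± 13.9 CPM. Each of the 10 IDA mice lay above the control mean. Etfb was called higher in the main fit (0.19 ± 0.05, adjusted p = 0.00435) and lower with the correction (-0.12 ± 0.05, adjusted p = 0.0446). The gene is short (904 bp), and 626 bp of its transcript are 99.7% identical to Gm45233. Etfa lay between 174 and 229 CPM (median 194.5) among control mice and between 195 and 233.9 CPM (median 224) among IDA mice, with means of 198 ± 18.2 (SD) and 218 ± 15.6 CPM, and was higher in the main fit only (0.14 ± 0.05, adjusted p = 0.0236, and -0.08 with the correction).

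The log2 ratio of Etfa to Etfb was 0.403 ± 0.0185 (SD) in control and 0.354 ± 0.0264 in IDA mice, the smallest SD of the 4 ratios. Both genes are among those whose raw counts varied less than their mean in both groups, and the part of this in the narrow spread was not tested. It was lower in IDA, at -0.05, in the counts (adjusted p = 0.0015, 2-sided permutation test) and higher by 0.04 with the length correction (adjusted p = 0.0013), so its direction is set by the treatment of length. Etfdh, the dehydrogenase that hands these electrons to ubiquinone and carries an iron-sulfur cluster, had medians of 368 and 396 CPM and was called in neither fit (0.05 and -0.02). It was higher by 0.13 (adjusted p = 0.0403) with length and GC content corrected and lower at -0.08 (adjusted p = 0.0437) with library size as a covariate. Per kilobase the level of Etfb was the highest in IDA hearts, at 189 CPM, and in control hearts, at 166 CPM.

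Thioesterases release free fatty acid from coenzyme A. Acot13, a short gene (686 bp), lay between 88.2 and 118 CPM (median 97.8) among control mice and between 105 and 124 CPM (median 119.8) among IDA mice, with means of 101 ± 9.17 (SD) and 117 ± 6.68 CPM. Each of the 10 IDA mice lay above the control mean. It was called higher in the main fit (0.22 ± 0.05, adjusted p = 0.000411) and lower with the correction (-0.13 ± 0.04, adjusted p = 0.00876). Acot2, the mitochondrial thioesterase, had medians of 116 and 119.7 CPM, with a wider range in IDA (74.0 to 144 CPM) than in control hearts (99.9 to 136 CPM). It was called in neither fit (0.01 and -0.07). A stretch of 1274 bp is 95.1% identical to Acot1, so pairs there may map to both genes and then were not counted. Per kilobase, Acot13 stood at 147 and 171 CPM and Acot2 at 52.4 and 53.0 CPM.

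Ehhadh, the bifunctional enzyme of peroxisomal oxidation, lay between 42.6 and 63.9 CPM (median 51.2) among control mice and between 24.6 and 83.95 CPM (median 48.7) among IDA mice. The IDA mice spread on both sides of the control range, with means of 52.8 ± 7.95 (SD) and 47.4 ± 16.5 CPM, and 2 of 10 lay above the control mean. The fold change was -0.16 ± 0.15 (adjusted p = 0.358), and -0.11 with the correction. Its standard error was the largest of the 35 members.

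Of the 3 storage genes, 3 were higher in the main fit, beside 35% of all genes tested. With the length correction 2 were higher, beside 31.5%. Dgat1 encodes a diacylglycerol acyltransferase, which completes triglyceride synthesis. It lay between 40.8 and 58.6 CPM (median 45.6) among control mice and between 52.0 and 63.1 CPM (median 59.7) among IDA mice, with means of 46.7 ± 4.94 (SD) and 58.4 ± 4.07 CPM. Each of the 10 IDA mice lay above the control mean, and the overlap came from the highest control mouse. Dgat1 was higher by 0.32 ± 0.06 (adjusted p = 3.57e-05) and by 0.16 ± 0.05 (adjusted p = 0.00557) with the length correction, and stood at -0.01 (adjusted p = 0.802) with GC content corrected as well.

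Dgat2, the unrelated second acyltransferase, lay between 298 and 377 CPM (median 328) among control mice and between 322 and 395 CPM (median 372) among IDA mice, with means of 333 ± 26.2 (SD) and 359.8 ± 26.9 CPM. It was higher in the main fit only (0.11 ± 0.05, adjusted p = 0.0460, and 0.04 with the correction), and lower with length and GC content corrected (-0.13, adjusted p = 0.0484). The main-fit call was kept in 40 of 100 fits that left out 1 mouse of each diet. The log2 ratio of Dgat1 to Dgat2 was -2.83 ± 0.111 (SD) in control and -2.62 ± 0.127 in IDA mice. It was higher in IDA by 0.21 (adjusted p = 0.0015, 2-sided permutation test) and by 0.12 with the length correction (adjusted p = 0.0254), the one ratio of 4 that kept its direction and its call. Dgat1 had 0.222 and Dgat2 1.14 pairs per exonic base, and the variance of the raw counts of Dgat2 was 2.57 times the mean in control and 2.69 times in IDA mice. Among control mice the raw count of Dgat2 ran from 2464 to 2710 pairs, while totals ran from 6797180 to 8960688 pairs. The part of a ceiling on Dgat2 in this ratio was not tested.

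Plin5 encodes the perilipin that coats droplets of oxidative tissue and tethers them to mitochondria. It lay between 211 and 253.8 CPM (median 217) among control mice and between 227 and 313 CPM (median 271) among IDA mice, with means of 222 ± 14.8 (SD) and 269 ± 32.1 CPM. Each of the 10 IDA mice lay above the control mean. It was higher by 0.28 ± 0.06 (adjusted p = 0.000272) in the main fit and by 0.17 ± 0.06 (adjusted p = 0.0193) with the length correction, and stood at -0.06 (adjusted p = 0.458) with GC content corrected as well. Per kilobase, Dgat2 was the highest of the storage genes at 148 and 159.8 CPM.

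Lipolysis was covered by Pnpla2 and Lipe, which act in turn on triglyceride and diglyceride. Both were higher in both fits, beside 21.5% of all genes tested. Lipe lay between 101 and 115 CPM (median 108) among control mice and between 110.5 and 163 CPM (median 143) among IDA mice. Its means were 108 ± 5.01 (SD) and 141 ± 18.7 CPM, and each of the 10 IDA mice lay above the control mean. The spread between IDA mice was wider than between control mice, and the lowest of them fell inside the control range. Lipe was higher by 0.38 ± 0.06 (adjusted p = 1.44e-05) in the main fit, by 0.47 ± 0.07 (adjusted p = 4.2e-06) with the length correction, and by 0.32 (adjusted p = 0.000299) with length and GC content corrected. It was called in 13 of 13 settings and in 100 of 100 fits that left out 1 mouse of each diet. Of its 3272 exonic bases, 809 (24.7%) are shared with 4732471J01Rik on the other strand, and since strand was not used in counting, pairs there were assigned to neither gene.

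Pnpla2, the adipose triglyceride lipase, lay between 290.1 and 367 CPM (median 321) among control mice and between 304 and 404 CPM (median 376) among IDA mice, with means of 326 ± 24.8 (SD) and 362 ± 34.9 CPM. It was higher by 0.15 ± 0.05 (adjusted p = 0.0170) and by 0.16 ± 0.06 (adjusted p = 0.0261) with the length correction, and stood at -0.03 with GC content corrected as well. Per kilobase it was the higher of the 2 lipases, at 120.0 and 133 CPM against 33.1 and 43.1 CPM for Lipe. Because adipocytes express Lipe at high level, their markers were measured in the same hearts. Summed over 7 white adipocyte genes (Adipoq, Plin1, Cidec, Lep, Retn, Cfd and Adig), the level was 7.40 to 49.8 CPM in control and 12.6 to 33.9 CPM in IDA hearts, with overlap. With the mean log2 level of those genes as a covariate, 0 of 35 members changed their call.

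Ppara, on chromosome 15 (chr15:85735564-85806851 in mm10, plus strand), was the member of largest fold change in the main fit. It lay between 234.3 and 320.5 CPM (median 279) among control mice and between 116 and 259 CPM (median 186) among IDA mice, with means of 277 ± 23.5 (SD) and 184 ± 36.9 CPM. Each of the 10 IDA mice lay below the control mean, and only the highest IDA mouse, replicate 7 with the most liver transcripts, reached the control range. The main fit gave -0.59 ± 0.09 (adjusted p = 7.24e-06). Ppara is 7528 bp long, and the length-corrected fit gave -0.11 ± 0.07 (adjusted p = 0.162). With GC content corrected as well it stood at -0.16 (adjusted p = 0.0560). Its sign was negative in 13 of 13 settings, with values between -0.70 and -0.11, and it was called in 11.

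The rest of the pathway was taken from a list of 146 genes that were not members, of which 133 could be tested. In the main fit 50 were higher (37.6%) and 34 lower (25.6%), and with the length correction 54 were higher (40.6%) and 24 lower (18%), against 35%, 32.5%, 31.5% and 23.5% of all genes. Calls in both fits were made for 33 higher (24.8%) and 18 lower (13.5%) genes, beside 21.5% and 19.1% of all genes. The median log2 fold change was 0.02, and 0.06 with the correction, beside 0.02 and 0.04 over all genes. Every IDA mouse lay above every control mouse for 4 of these 133 genes and below for 5, beside 4.97% and 6.28% of all genes.

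Ranked by the main fit, the genes of largest rise called in both fits began with Angptl4, the secreted inhibitor of lipoprotein lipase. It lay between 21.9 and 88.6 CPM (median 62.2) among control mice and between 46.6 and 135 CPM (median 105) among IDA mice, a fold change of 0.85 in the main fit and 0.71 with the correction. Bdh1, which oxidises the ketone body hydroxybutyrate, had medians of 154 and 228 CPM (0.68 and 0.77). The desaturase gene Scd4 had medians of 39.8 and 56.2 CPM (0.53 and 0.59). Ucp2, a mitochondrial carrier, separated the groups, at 128 to 154 CPM in control and 182 to 235.9 CPM in IDA hearts (0.52 and 0.72). The last of these 6 were Agpat4, an acyltransferase, with medians of 11.9 and 17.4 CPM (0.51 and 0.38), and Cidea, a lipid droplet protein, with medians of 51.5 and 70.1 CPM (0.45 and 0.18). When GC content was corrected as well, Cidea stood at 0.03 and was not called (adjusted p = 0.669), and the other 5 were called higher.

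The largest falls called in both fits, again ranked by the main fit, began with Nrip1, a nuclear receptor corepressor. It spanned 9.10 to 38.3 CPM in control and 3.70 to 13.7 CPM in IDA hearts (-1.97 and -1.72). Esrrg, an orphan receptor of oxidative metabolism, spanned 102 to 169 CPM among control and 55.2 to 101 CPM among IDA mice, with no overlap (-0.998 and -0.66). Gpam, which starts glycerolipid synthesis at the mitochondrion, had medians of 303 and 161 CPM (-0.76 and -0.60). Prkaa2, a catalytic subunit of AMP-activated kinase, had medians of 416 and 240.6 CPM (-0.69 and -0.17). Acsl4, a synthetase that favours arachidonate, and Acbd5, an acyl-CoA binding protein of peroxisomes, both separated the groups. The values of Acsl4 were -0.69 and -0.37, and those of Acbd5 -0.67 and -0.51. With GC content corrected as well, Prkaa2 turned to 0.03 and was not called (adjusted p = 0.537), and the other 5 were called lower.

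Of the regulators and carriers named by rule for this list, Ppargc1a, the coactivator of mitochondrial genes, was lower in the main fit (-0.37, adjusted p = 0.0178) and not called with the correction (0.04). Ppard was not called in the main fit (0.01) and was higher with the correction (0.10, adjusted p = 0.0450), and not called with GC content corrected as well (0.02). Pparg was called in neither fit (-0.10 and -0.22). Of the targets of PPAR alpha outside oxidation, Pdk4, which restrains pyruvate oxidation, had medians of 551 and 595 CPM and was called in neither fit (-0.02 and 0.09). Ucp3 had medians of 159 and 221 CPM and a wide IDA range of 84.9 to 318 CPM, and was called in neither (0.33 and 0.29). The droplet protein Plin2 had medians of 120.2 and 143 CPM and was higher in both fits (0.28 and 0.14), but not called with GC content corrected as well (0.07, adjusted p = 0.199). Hilpda, an inhibitor of Pnpla2 that hypoxia is known to induce, had medians of 10.1 and 13.3 CPM and was higher in the main fit only (0.41 and 0.13). The carnitine transporter gene Slc22a5 was called in neither (-0.10 and -0.03). Fabp4, the binding protein of adipocytes and endothelium, is short (641 bp) and stood at 0.16 in the main fit and at -0.19 with the correction, both called, and at -0.02 with GC content corrected as well, not called (adjusted p = 0.764). Bbox1 and Tmlhe, 2 enzymes of carnitine synthesis, were below the filter.

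The calls by group stand beside those of all genes tested. These were 35% higher and 32.5% lower in the main fit, and 31.5% and 23.5% with the length correction. The 5 ketone body genes gave 2 higher in the main fit and 5 higher with the correction. Of 22 genes of triglyceride synthesis and storage, 11 were higher and 3 lower, and 13 and 2 with the correction. Of 23 regulators, 5 were higher and 13 lower, and 8 and 6 with the correction. Their median exonic length was 4621 bp, and their median fold change went from -0.28 to 0.00198. Of 13 further genes of mitochondrial oxidation, 7 were higher and 2 lower, and 4 and 3 with the correction. Of 15 peroxisomal genes, 6 were higher and 3 lower, and 3 and 1 with the correction. Among 15 genes of uptake and activation the counts were 8 and 5, and 5 and 5 with the correction. The 6 genes of carnitine supply gave 0 higher and 1 lower, and 1 and 1 with the correction. The 9 thioesterases gave 3 and 3, then 1 and 3. The 6 genes of lipolysis gave 2 and 1 in either fit, and the 15 genes of fatty acid synthesis gave 4 and 3, then 10 and 2. The 4 other targets of PPAR alpha gave 2 higher and 0 lower in either fit.

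Markers of other tissues were measured in the same hearts, since whole hearts were used and a change in the number of a cell type and in its RNA per cell cannot be told apart. The 8 cardiomyocyte markers were abundant, at a summed 4412 to 5300 CPM in control and 3878 to 5441 CPM in IDA hearts. Erythroid markers were at 85.9 to 167 CPM in control and 178 to 637 CPM in IDA hearts with no overlap, although Hba-a1 and Hba-a2 were at 0 in all 20 mice. Of the brown adipocyte markers only Cidea was abundant, at 43.8 to 64.3 CPM in control and 63.5 to 79.0 CPM in IDA hearts, whereas Ucp1 reached no more than 4.19 and 6.21 CPM. Skeletal muscle markers summed to 2.36 to 5.20 CPM in control and 3.23 to 22.4 CPM in IDA hearts. Endothelial (1359 to 1544 and 1241 to 1487 CPM), fibroblast (922 to 1086 and 929.6 to 1065 CPM) and macrophage (322 to 366 and 288 to 398 CPM) sums overlapped between the diets, while single markers moved in both directions in the main fit. Of 6 endothelial markers 2 were higher and 3 lower, of 5 fibroblast markers 2 and 1, of 5 macrophage markers 2 and 1, and of 8 cardiomyocyte markers 3 and 1. With the length correction these counts were 2 and 0, 1 and 2, 2 and 0, and 2 and 5. Pdgfra, a fibroblast marker picked out after its values were seen, separated the groups at 105 to 148 CPM in control and 61.5 to 94.6 CPM in IDA hearts. The other fibroblast markers overlapped between the diets. Their means in control and IDA hearts were 304 and 312 CPM for Dcn, 143 and 138 CPM for Lum, 284 and 325.5 CPM for Col1a1, and 137 and 153 CPM for Dpt. The part of these markers in the members' values was not tested, apart from the adipocyte covariate given with Lipe and the fits without the 2 mice.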

How the data were processed

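Messenger RNA of 20 whole hearts was sequenced as read pairs. Per the labels and the study's methods, the authors aligned the reads to mm10 with STAR and removed duplicate reads, and deposited a table of counts of read pairs per gene on exons, made with featureCounts 1.4.5-p1 (per the file header) without strand, and without pairs that map to several places or overlap several genes. The counts were not normalized. Totals were 6682177 to 8960688 pairs per mouse.

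From the counts, edgeR 4.0.16 (R 4.3.3) was run with TMM scaling, the quasi-likelihood test and Benjamini-Hochberg adjustment over 13590 genes that reached 1 CPM in 10 mice or more, as the main fit. In the second fit, a loess trend (span 0.5, degree 1) on log2 exonic length was entered as an offset for each mouse. Both were tested on simulated data without a ceiling from duplicate removal, so that test does not cover counts held down in this way. The 4 ratios were compared by permutation (1e+05 resamples) of log2 ratios of counts with 0.5 added. Nearly identical transcripts (at least 95% over 150 bases) were found with blastn 2.17.0 in the GENCODE mouse transcripts of the same build. DESeq2 1.42.0 and other settings were alternatives. P-values measure the spread between mice.

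Ranges, medians and means were given for the called members of largest change, those called in 1 of the 2 fits or in opposite directions, the highest per length in each step and the genes of the ratios. From the pathway list, the 6 of largest main-fit change in each direction among those called alike in both fits were named, with 12 fixed genes. The members, lists, tests and this rule were chosen with earlier results of these data known. The study left out a mouse of each diet for contamination without naming it, so all 20 were used. The labels disagree on the iron content of the deficient diet, which is not given here.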

Additional observations from a re-analysis of the deposited data

Results flagged for a closer look

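Among the 70 groups of 10 mice formed by 35 members and 2 diets, 2 held a mouse far from the others by Dixon's test, and chance gives about 1 in 20. The first was Acacb in control replicate 6, at 699.7 CPM, with the next lowest control mouse at 787 CPM. The other was Ehhadh in IDA replicate 2, at 83.95 CPM, with the next highest IDA mouse at 55.6 CPM.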

How the results depend on the processing

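In the main fit, 18 members were higher and 3 lower. The number higher was 10 with the length correction, 9 with length and GC content corrected, 5 with log2 library size as a covariate and 11 without scaling, and 10 to 24 in 100 fits that each left out 1 mouse of each diet. The 10 came without control replicate 8 and either IDA replicate 6 or IDA replicate 8, and the 24 without control replicate 1 and IDA replicate 4. The number lower was 9 with length and GC content corrected and 9 with library size as a covariate. With the length correction, 3 members were lower, against 0 without a filter on low counts, 5 at 5 CPM or more and 5 without control replicate 4 and IDA replicate 7, an exclusion chosen after seeing the data. In the pathway list, 29 genes were higher without scaling in place of 50, and 22 were lower with length and GC content corrected in place of 34. Of the log2 ratios, Cpt1a to Cpt1b was -0.16 and not called with the length correction, Hadha to Hadhb was 0.33 and called, and Etfa to Etfb turned to 0.044. The cause of these shifts was not tested.

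Members that changed sign against the main fit were the following, with their log2 fold changes. With the length correction these were Fabp3 (-0.189), Slc27a1 (0.00776), Acsl1 (0.0324), Slc25a20 (-0.0381), Acacb (0.447), Acadl (-0.00969), Acadm (-0.0531), Hadhb (-0.0499), Hadh (-0.0688), Acaa2 (-0.0539), Ech1 (-0.126), Eci1 (-0.0953), Etfa (-0.0752), Etfb (-0.118), Etfdh (-0.0191), Acot2 (-0.0672) and Acot13 (-0.127). With length and GC content corrected these were Fabp3 (-0.305), Acsl1 (0.164), Cpt2 (-0.0211), Mlycd (-0.0734), Acacb (0.267), Acadvl (-0.0322), Acads (-0.094), Hadh (-0.104), Acaa2 (-0.141), Ech1 (-0.253), Eci1 (-0.206), Etfb (-0.304), Acot2 (-0.175), Acot13 (-0.13), Plin5 (-0.0559), Dgat1 (-0.0136), Dgat2 (-0.132) and Pnpla2 (-0.0283). With library size as a covariate these were Cd36 (-0.092), Lpl (-0.075), Cpt2 (-0.0198), Slc25a20 (-0.0151), Acadl (-0.0366), Acadm (-0.0989), Hadha (-0.0423), Hadhb (-0.0382), Hadh (-0.0533), Acaa2 (-0.00165), Ech1 (-0.0281), Decr1 (-0.0541), Etfa (-0.0142), Etfdh (-0.0826), Acot2 (-0.129), Dgat2 (-0.0215) and Pnpla2 (-0.0037). Without scaling, which was added after seeing the data, these were Cd36 (-0.048), Lpl (-0.015), Acadm (-0.0422), Hadhb (-0.0202), Decr1 (-0.0127), Etfdh (-0.0456) and Acot2 (-0.0913). Acot2 stood at -0.00286 with the replicate block and at -0.0194 without control replicate 4 and IDA replicate 7. In the fits that left out 1 mouse of each diet, Slc27a1 ranged from -0.0542 to 0.049, Cpt1b from -0.083 to 0.00985 and Acot2 from -0.0464 to 0.0991. No member changed sign with RLE size factors, DESeq2, either filter, the adipocyte markers as covariate or the library number as a term.

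With mice of the same number as a replicate block, 14 members were higher and 2 lower, or 8 and 3 with the length correction, and 48 and 33 pathway genes. The share of all genes called with the block was not counted, so these numbers cannot be read against a background. Same-numbered mice of the 2 diets correlated at -0.278 to 0.264 in their deviations from the diet means, and 3 of 10 correlated best with their own number, so the numbers did not pair the mice. The number of pairs counted limits the precision for Cpt1b, with 57.1 and 51.9 per mouse.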
